A study of Arabidopsis thaliana with 18 samples.

Results

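Aquaporins are channel proteins that let water, and in some members small solutes, cross cell membranes. The 35 aquaporin genes of Arabidopsis thaliana were taken as a complete family by their locus identifiers, whatever their expression, and all 35 were among the 33602 loci measured. They comprise 13 plasma membrane intrinsic proteins (PIPs, of which 5 are PIP1 and 8 are PIP2), 10 tonoplast intrinsic proteins (TIPs), 9 NOD26-like intrinsic proteins (NIPs) and 3 small basic intrinsic proteins (SIPs). Members are written here with a hyphen, as in the protein databases, so that PIP2-1 is the gene whose RefSeq entry also lists the family number with a semicolon. Of the 35 genes, 32 had enough reads to be tested, among 22795 loci of the whole set.

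The measurements are poly(A) RNA sequencing of whole seedlings in 18 libraries, 3 for each of 6 groups. The groups are ahl10-1 at stress and at control, rrp6l1-2 at stress and at control, and wild-type Col-0 (WT) at stress and at control. Stress was 96 h on agar infused with polyethylene glycol at -0.7 MPa, a low water potential that withdraws water from the plant as a drying soil does, and control was the same time at -0.25 MPa. Stress began at 7 days, all seedlings grew without sugar in continuous light, and all were harvested at 11 days. AHL10 encodes an AT-hook DNA-binding protein and RRP6L1 a relative of the exosome nuclease RRP6, and each gene is represented by 1 mutant allele. The 3 libraries of a group come from separate biological experiments, so p-values measure the spread between those experiments.

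Levels are given throughout as RPKM (reads of a gene divided by its length and by the reads of the library) computed from the deposited counts and scaled by TMM factors (trimmed mean of M values), so that they are per length and on 1 scale for all libraries. Libraries held 57996104 to 68555138 reads on genes. As a check of the genotype labels, the AHL10 level averaged 15.3 ± 1.34 in ahl10-1 stress and 32.5 ± 0.649 in WT stress libraries (SD, n = 3 each), and 11.7 ± 1.21 in ahl10-1 control and 23.6 ± 0.364 in WT control libraries. The RRP6L1 level averaged 2.20 ± 0.601 in rrp6l1-2 stress and 12.3 ± 0.298 in WT stress libraries, and 3.14 ± 0.727 in rrp6l1-2 control and 11.7 ± 0.628 in WT control libraries. Both transcripts were lower in their own mutant and neither was at 0. All 10 leaf mesophyll and all 8 root hair markers were detected, in libraries of whole seedlings. Pollen markers summed to at most 2.33 in any library, with PRK2A at 0 reads in all 18.

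As background, PIPs sit in the plasma membrane and set how fast water enters and leaves a cell, while TIPs sit in the tonoplast, the membrane of the vacuole, where most of a plant cell's water is held. PIP1 proteins generally need a PIP2 partner to reach the plasma membrane. NIPs carry solutes such as boric acid, glycerol and metalloids as well as water, and SIPs reside in the endoplasmic reticulum. Many PIP and TIP transcripts are known to fall in Arabidopsis that is short of water, and a few are known to rise.

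Levels spread over several orders of magnitude within the family, and a few members held most of it. PIP1-2 had the highest mean level over the 18 libraries, 815, which placed it 75th among all loci. The order depended on treatment. TIP1-2 led at control, with 818 ± 32.5 against 719 ± 20.9 for PIP1-2 in WT control libraries (SD, n = 3 each), and its mean was also above that of PIP1-2 in the control libraries of both mutants. At stress PIP1-2 had the higher mean in each genotype. Over all 18 libraries TIP1-2, PIP2-1, TIP2-1, PIP2-7, TIP1-1 and PIP1-3 followed, and these 7 members together made 76.54% of the summed level of the family. SIP1-1, at a mean level of 49.8, was the highest SIP, and NIP1-1, at 26.0, the highest NIP.

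NIP2-1 had the lowest mean level of the tested members, 0.136. Most of the other members at the bottom are known from seeds or flowers. TIP3-1 and TIP3-2, tonoplast aquaporins of seeds, had mean levels of 0.923 and 1.47. NIP7-1, known from anthers, had a mean level of 0.329, and NIP4-2, known from pollen, one of 0.542. The 3 genes that were not tested were TIP1-3 and TIP5-1, both pollen aquaporins, and NIP4-1, whose coding sequence was 88.15% identical to that of NIP4-2. TIP1-3 had 22 reads spread over 9 libraries, TIP5-1 had 2 reads in 1 library and NIP4-1 had 0 reads in all 18. A count of 0 allows up to 3 reads per library, which is 0.0438 to 0.0517 CPM, the reads of a gene as a share of the library total, and this limit covers counting error only.

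**Figure D1:**
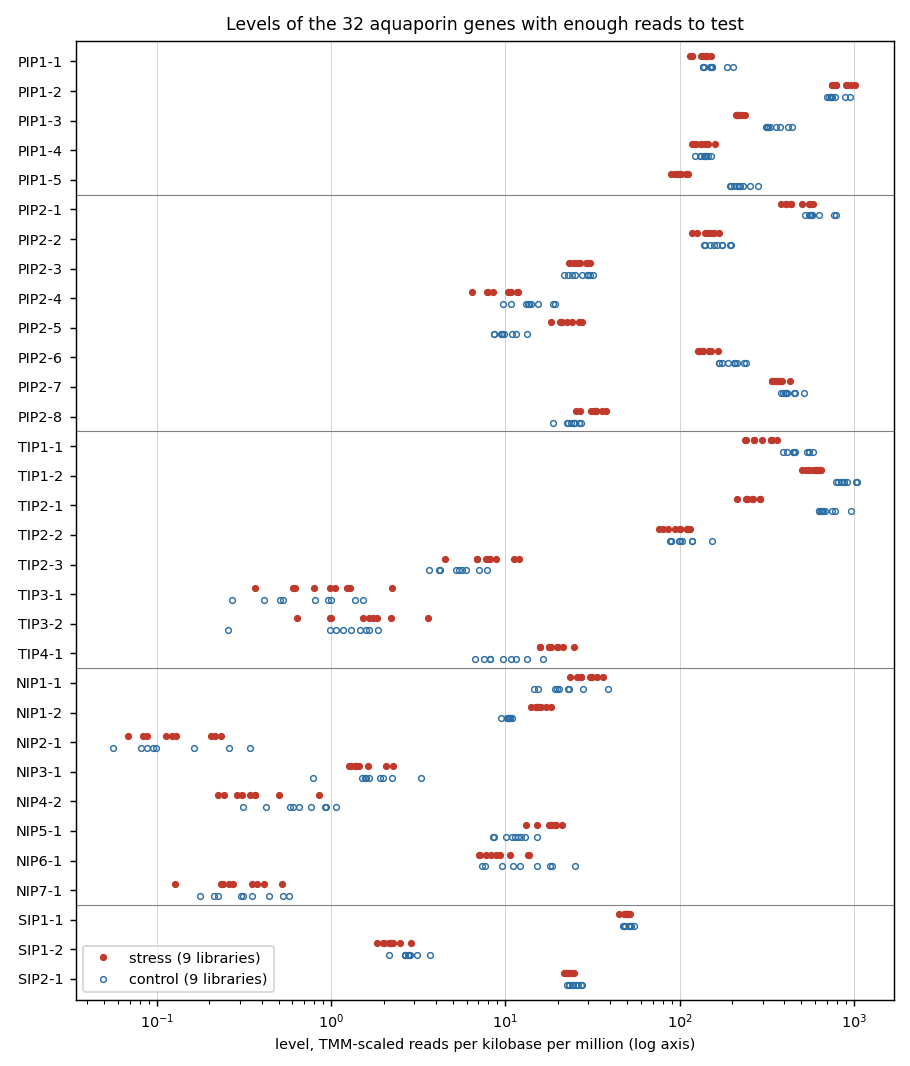
Level of each of the 32 tested aquaporin genes in the 18 libraries, in TMM-scaled RPKM on a log axis, with filled points for the 9 stress libraries and open points for the 9 control libraries. PIP1-2 lies between 699 and 1010.05, while NIP2-1 does not exceed 0.342; its 1 library with 0 reads cannot be drawn on a log axis.

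PIP2-2 and PIP2-3 are near-identical copies, 2612 bases apart on chromosome 2 and facing away from each other, so their reads can be split wrongly. In RefSeq's TAIR10.1 annotation PIP2-2 lies at chr2:15613368-15615022 on the minus strand and PIP2-3 at chr2:15617635-15619155 on the plus strand. Their coding sequences were identical at 94.76% of 858 aligned bases, with 45 differences and a longest identical run of 242 bases. The 90-base window with the most differences, 12, is shown to make visible what separates the reads of the copies, with the differing bases in capitals.
PIP2-2: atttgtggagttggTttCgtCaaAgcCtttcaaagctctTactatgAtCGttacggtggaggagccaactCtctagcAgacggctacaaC
PIP2-3: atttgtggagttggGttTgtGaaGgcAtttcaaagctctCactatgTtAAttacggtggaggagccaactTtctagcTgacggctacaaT
The deposited files list 0.193% to 0.521% of each gene's reads as mapping to several places. PIP2-2 averaged 134 ± 13.5 in WT stress and 164 ± 29.2 in WT control libraries (SD, n = 3 each), and PIP2-3 averaged 25.1 ± 1.65 in WT stress and 27.0 ± 3.92 in WT control libraries. PIP2-2 was the more abundant copy in every library, and neither was called in any comparison by the fit described here. A fit of the rrp6l1-2 libraries alone with the replicate number as a block, chosen after seeing the data, called PIP2-2 lower at stress (log2 fold change -0.20, edgeR adjusted p = 0.0385). Leaving out the reads listed as mapping to several places changed no call of PIP2-2 or PIP2-3. Their values stay uncertain because the counting was not described in enough detail to tell how shared reads were divided.

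The comparison of stress with control asks which aquaporin transcripts differ after 96 h at low water potential. Across the 3 genotypes, 6 members fell in each genotype (PIP1-3, PIP1-5, PIP2-6, TIP1-1, TIP1-2 and TIP2-1) and 3 rose in each (PIP2-5, NIP1-2 and NIP5-1). The share of all genes called in the same direction in all 3 genotypes was not computed, so this overlap has no background beside it. A gene was called when its adjusted p, from edgeR's quasi-likelihood test with Benjamini-Hochberg adjustment over all 22795 genes, was under 0.05. In ahl10-1, 5 of the 32 tested members rose and 7 fell, which is 37.5%, beside 30.1% of all genes tested (15.7% higher and 14.4% lower). In rrp6l1-2, 5 rose and 6 fell, which is 34.4%, beside 29.5% of all genes (14.9% higher and 14.7% lower). In WT, 4 rose and 6 fell, which is 31.25%, beside 26.1% of all genes (12.6% higher and 13.4% lower). The share of aquaporins that changed was close to the background, so these counts say which members changed and not that the family did so more than other genes.

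The median log2 fold change of the tested members was -0.07 in ahl10-1, -0.22 in rrp6l1-2 and -0.12 in WT, beside 0.0059, 0.0216 and -0.0029 for all genes. The stress and control libraries did not overlap for 13 members in ahl10-1, 17 in rrp6l1-2 and 16 in WT, beside 40.1%, 44.7% and 43.2% of all genes. Besides the 9 members called in all 3 genotypes, PIP2-8 was called in rrp6l1-2 and WT, TIP4-1 in ahl10-1 and rrp6l1-2, and PIP2-7 and TIP2-3 in ahl10-1 alone. No member was called in opposite directions in different genotypes. Without TMM factors the median of all genes moved to 0.075 in ahl10-1, 0.127 in rrp6l1-2 and 0.068 in WT, and higher genes made 63.0%, 68.3% and 60.3% of all calls, against 52.1%, 50.3% and 48.5% with them.

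The members called lower were abundant and those called higher were not. Those called lower had mean control levels of at least 204 in ahl10-1, 212 in rrp6l1-2 and 184 in WT. Those called higher had mean control levels of at most 10.5 in ahl10-1, 21.7 in rrp6l1-2 and 25.0 in WT. This split is by call, and some members at low levels had negative values without being called. In WT, PIP2-4 (mean control level 14.6) had a log2 fold change of -0.63 and NIP6-1 (17.3) one of -0.46. The authors' deposited table calls both of these lower in WT. PIP1-2, with mean control levels of 817 in ahl10-1, 802 in rrp6l1-2 and 719 in WT, was abundant and was called in none of the 3.

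**Figure D2:**
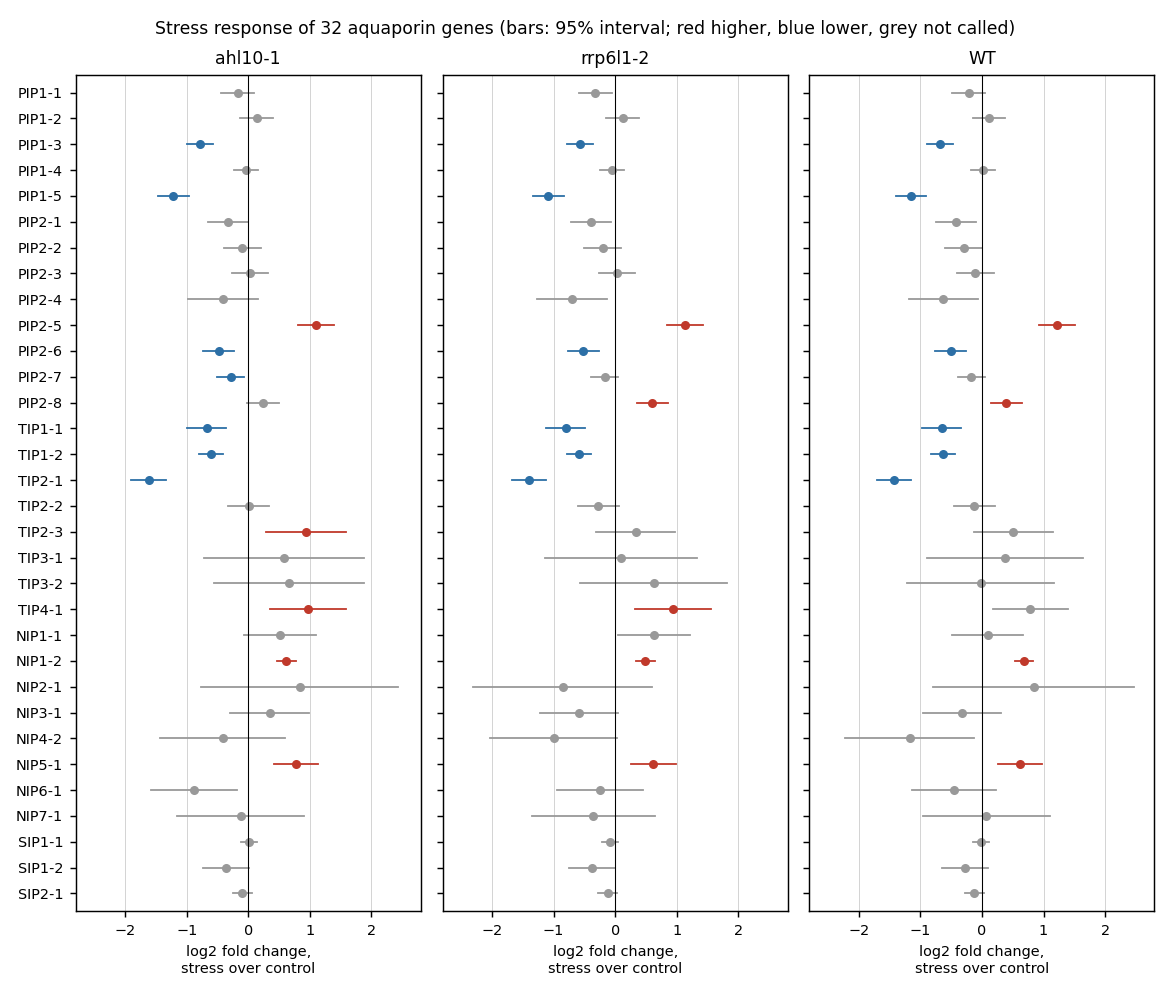
Log2 fold change of stress over control for the 32 tested aquaporin genes in ahl10-1, rrp6l1-2 and WT, with bars for the 95% interval of the edgeR fit and colours for the call. TIP2-1 and PIP1-5 lie farthest to the left and PIP2-5 farthest to the right among called members, in all 3 panels.

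In the PIP1 group, 2 of 5 members fell and none rose in each genotype. Of all genes, 30.1%, 29.5% and 26.1% were called in either direction in ahl10-1, rrp6l1-2 and WT. PIP1-5 (AT4G23400) fell by more than any other PIP. Its level was 95.9, 99.6 and 109 in stress against 232, 194 and 281 in control libraries of ahl10-1. In rrp6l1-2 the PIP1-5 level was 94.4, 112 and 110.5 in stress against 213, 206 and 252 in control. For WT the PIP1-5 level was 89.1, 101 and 97.3 in stress against 222, 199 and 218 in control. The stress libraries of PIP1-5 were all below the control libraries, with no overlap in any genotype. Its log2 fold change was -1.22 (SE 0.12, adjusted p = 1.78e-06) in ahl10-1, -1.08 (SE 0.12, adjusted p = 7.19e-06) in rrp6l1-2 and -1.15 (SE 0.12, adjusted p = 3.98e-06) in WT, so the WT level was 2.22 times lower at stress.

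PIP1-3 (AT1G01620), a PIP1 present at a higher level, fell by less. Its level was 226, 217 and 238 in stress against 440.1, 319 and 418 in control libraries of ahl10-1. In rrp6l1-2 the PIP1-3 level was 210.03, 222 and 213 in stress against 318, 313 and 329 in control. For WT the PIP1-3 level was 218, 229 and 212 in stress against 376, 321 and 358 in control. All stress libraries lay below all control libraries of the same genotype, and the 9 stress libraries were close together, between 210.03 and 238. PIP1-3 had a log2 fold change of -0.79 in ahl10-1, -0.57 in rrp6l1-2 and -0.68 in WT, with an edgeR adjusted p of 2.17e-05, 0.000462 and 0.000108 in that order.

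PIP1-2 (AT2G45960), known in Arabidopsis for hydraulic conductivity of roots and leaves, did not pass the test. Its level was 779.9, 907 and 1010.1 in stress against 751, 744 and 957 in control libraries of ahl10-1. In rrp6l1-2 the PIP1-2 level was 747, 912 and 966 in stress against 782, 736 and 889 in control. For WT the PIP1-2 level was 751, 792 and 793 in stress against 741, 699 and 718 in control. In WT the stress libraries were just above the control libraries, and in both mutants the groups overlapped. The 95% interval of its log2 fold change was -0.13 to 0.40 in ahl10-1, -0.14 to 0.39 in rrp6l1-2 and -0.15 to 0.38 in WT, so a change of 1 on the log2 scale lay outside it in each. PIP1-4 had log2 fold changes of -0.04, -0.05 and 0.01 and PIP1-1 of -0.17, -0.32 and -0.22 in the same order. Same-numbered stress and control libraries of rrp6l1-2 deviated together, and with the replicate number as a block PIP1-1 was called lower in rrp6l1-2 (log2 fold change -0.32, adjusted p = 0.0245).

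In the PIP2 group, 1 or 2 of 8 members rose and 1 or 2 fell, depending on the genotype. That makes 37.5% called in each, beside 30.1%, 29.5% and 26.1% of all genes in ahl10-1, rrp6l1-2 and WT. PIP2-5 (AT3G54820), a plasma membrane water channel at a low level in these seedlings, rose. Its level was 24.2, 20.7 and 22.5 in stress against 13.3, 9.56 and 8.58 in control libraries of ahl10-1. In rrp6l1-2 the PIP2-5 level was 21.2, 18.4 and 21.0 in stress against 9.44, 9.51 and 8.66 in control. For WT the PIP2-5 level was 26.5, 20.8 and 27.6 in stress against 10.97, 11.4 and 9.77 in control. Each stress library was above each control library. The log2 fold change was 1.09 (SE 0.14, adjusted p = 2.56e-05) in ahl10-1, 1.13 (SE 0.14, adjusted p = 2.45e-05) in rrp6l1-2 and 1.22 (SE 0.14, adjusted p = 1.09e-05) in WT, where the level was 2.33 times higher at stress. Even so, the WT stress mean of 25.0 ± 3.68 was far below the 409 ± 25.8 of PIP2-1 (level, SD, n = 3 each).

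PIP2-6 (AT2G39010), linked in Arabidopsis to the water conductance of leaf veins, fell in each genotype. Over the 9 stress libraries its lowest, median and highest levels were 127, 137 and 167, against 168, 206 and 239 over the 9 control libraries, and the groups did not overlap within any genotype. For PIP2-6 the log2 fold change was -0.48 in ahl10-1, -0.52 in rrp6l1-2 and -0.51 in WT, with edgeR adjusted p-values of 0.00583, 0.00407 and 0.00469.

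PIP2-8 (AT2G16850) rose in rrp6l1-2 and WT. Its level was 25.5, 26.7 and 37.7 in stress against 26.5, 24.9 and 24.6 in control libraries of ahl10-1. In rrp6l1-2 the PIP2-8 level was 30.9, 32.4 and 35.9 in stress against 22.6, 23.7 and 18.8 in control. For WT the PIP2-8 level was 33.0, 32.8 and 33.1 in stress against 24.8, 27.3 and 23.0 in control. Stress and control libraries of ahl10-1 overlapped, and those of rrp6l1-2 and WT did not. The log2 fold change was 0.24 in ahl10-1, 0.61 in rrp6l1-2 and 0.40 in WT, with adjusted p-values of 0.151, 0.00161 and 0.0232 from edgeR. The interaction of ahl10-1 with stress had a log2 value of -0.16 for PIP2-8 and did not pass the test, so the genotypes are not shown to differ. In WT the call was lost in 4 of the 6 fits that left out 1 library, with adjusted p-values of 0.0503 to 0.0789 without replicate 1 or 3 of either treatment.

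PIP2-1 (AT3G53420), the most abundant PIP2 and a water channel of guard cells and roots, was lower at stress in most libraries. It was not called by the fit described here, but its call depended on the fit. Its level was 437, 503 and 583 in stress against 572, 573 and 765 in control libraries of ahl10-1. In rrp6l1-2 the PIP2-1 level was 409, 549.6 and 557 in stress against 628, 562 and 788 in control. For WT the PIP2-1 level was 384, 408 and 436 in stress against 552, 521 and 567 in control. The groups overlapped in ahl10-1 and were separate in rrp6l1-2 and WT. Log2 fold changes were -0.33, -0.38 and -0.42 in ahl10-1, rrp6l1-2 and WT, with adjusted p-values of 0.120, 0.0700 and 0.0555 from edgeR. In WT, DESeq2 called PIP2-1 lower (adjusted p = 0.0292), as did both limma fits on log2 RPKM (adjusted p-values of 0.0483 and 0.0481). So did edgeR on the WT libraries alone (adjusted p = 0.00739), with the replicate number as a block (0.00953) and without TMM factors (0.0470). With the replicate number as a block PIP2-1 was called lower in ahl10-1 (adjusted p = 0.0326) and in rrp6l1-2 (adjusted p = 0.0156), the genotypes whose same-numbered libraries deviated together. Without rrp6l1-2 control replicate 2 both PIP2-1 (adjusted p = 0.0347) and PIP1-1 (adjusted p = 0.0463) were called lower in rrp6l1-2.

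PIP2-7 (AT4G35100), a plasma membrane water channel that the stress protein TSPO is known to bind in Arabidopsis, was called lower in ahl10-1 with a log2 fold change of -0.28 (adjusted p = 0.0485). That call was lost in 5 of 10 other settings and in 4 of the 6 fits that left out 1 library, where its log2 fold change was -0.19 without control replicate 3. In rrp6l1-2 and WT its log2 fold change was -0.17 and -0.18, with adjusted p-values of 0.235 and 0.230. Its lowest, median and highest levels were 340.04, 361 and 433 over the 9 stress libraries and 384, 410.5 and 517 over the 9 control libraries, which overlap. PIP2-4, a root PIP, had log2 fold changes of -0.41, -0.71 and -0.63 in ahl10-1, rrp6l1-2 and WT and was not called. By edgeR on the ahl10-1 libraries alone with the block PIP2-4 was called lower (adjusted p = 0.0324), as it was by DESeq2 in rrp6l1-2 (adjusted p = 0.0193) and without rrp6l1-2 control replicate 1 (adjusted p = 0.0173). The corresponding values were -0.10, -0.20 and -0.30 for PIP2-2 and 0.03, 0.03 and -0.10 for PIP2-3.

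Of the 8 tested TIPs, 3 fell in each genotype, while 2 rose in ahl10-1, 1 in rrp6l1-2 and none in WT. That makes 62.5%, 50% and 37.5% called in that order, beside 30.1%, 29.5% and 26.1% of all genes. TIP2-1 (AT3G16240), also called delta-TIP and known to carry ammonia as well as water, fell in each genotype. Its level was 245, 241 and 289 in stress against 781, 627 and 965 in control libraries of ahl10-1. In rrp6l1-2 the TIP2-1 level was 245, 289 and 259.5 in stress against 679, 663 and 752 in control. For WT the TIP2-1 level was 213, 264 and 243 in stress against 651, 632 and 655 in control. The highest stress library, at 289, was far below the lowest control library, at 627. The log2 fold change was -1.61 (SE 0.13, adjusted p = 3.63e-07) in ahl10-1, -1.40 (SE 0.13, adjusted p = 1.90e-06) in rrp6l1-2 and -1.43 (SE 0.13, adjusted p = 1.52e-06) in WT. TIP2-1 was 3.06, 2.64 and 2.69 times lower at stress in these genotypes.

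TIP1-2 (AT3G26520), the most abundant tonoplast member, also fell. Its level was 583, 598 and 643 in stress against 879.7, 843 and 1045 in control libraries of ahl10-1. In rrp6l1-2 the TIP1-2 level was 608, 627 and 648 in stress against 917, 882 and 1032 in control. For WT the TIP1-2 level was 506, 531 and 552 in stress against 791, 809 and 854 in control. No stress library of TIP1-2 reached the control libraries. Log2 fold changes of TIP1-2 were -0.60, -0.59 and -0.63 in ahl10-1, rrp6l1-2 and WT, with edgeR adjusted p-values of 0.000148, 0.000219 and 0.000124. TIP1-1 (AT2G36830), also called gamma-TIP and a vacuolar water channel of elongating tissue, had levels of 268, 337 and 361 in stress against 454, 541 and 551 in control libraries of ahl10-1. In rrp6l1-2 the TIP1-1 level was 237, 335 and 341 in stress against 450.3, 586 and 553 in control. For WT the TIP1-1 level was 268, 296 and 239.7 in stress against 390.2, 459 and 411 in control. Within each genotype the stress libraries of TIP1-1 lay below the control libraries. The TIP1-1 log2 fold change was -0.68, -0.80 and -0.65 in the same order of genotypes, with adjusted p-values of 0.00281, 0.000931 and 0.00435.

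Of the low-level TIPs known from roots, TIP4-1 (AT2G25810) rose in both mutants and TIP2-3 (AT5G47450) in ahl10-1. The TIP4-1 level was 19.8, 17.7 and 18.4 in stress against 8.12, 10.8 and 9.72 in control libraries of ahl10-1. In rrp6l1-2 the TIP4-1 level was 15.8, 20.2 and 24.7 in stress against 6.69, 11.6 and 13.3 in control. For WT the TIP4-1 level was 21.5, 17.7 and 15.8 in stress against 7.50, 8.14 and 16.4 in control. Groups were separate in both mutants, and in WT control replicate 3 lay inside the range of the stress libraries. TIP4-1 rose in ahl10-1 (log2 fold change 0.96, adjusted p = 0.0202) and rrp6l1-2 (0.94, adjusted p = 0.0233), and its WT value of 0.78 had an adjusted p of 0.0562. Without that library the WT log2 fold change of TIP4-1 was 1.23 and passed the test (adjusted p = 0.00256). WT control replicate 3 also had the highest root marker sums of the WT control libraries, as given below. The TIP2-3 level was 12.0, 8.87 and 8.22 in stress against 4.17, 5.40 and 5.64 in control libraries of ahl10-1. In rrp6l1-2 the TIP2-3 level was 8.07, 7.75 and 6.89 in stress against 4.20, 5.96 and 7.86 in control. For WT the TIP2-3 level was 6.89, 11.2 and 4.52 in stress against 5.24, 3.66 and 7.02 in control. The TIP2-3 groups were separate in ahl10-1 and overlapped in rrp6l1-2 and WT. TIP2-3 rose in ahl10-1 (log2 fold change 0.93, adjusted p = 0.0299), and its values of 0.33 in rrp6l1-2 and 0.51 in WT did not pass. The call of TIP2-3 in ahl10-1 was lost in 5 of the 6 fits that left out 1 library, all but that without stress replicate 3. That of TIP4-1 was lost in 3 of 6 in each mutant, namely without control replicate 1 or 3 or stress replicate 1 in ahl10-1, and without control replicate 1 or stress replicate 2 or 3 in rrp6l1-2 (adjusted p-values of 0.0517 to 0.106). TIP2-2 had log2 fold changes between -0.27 and 0.01 and was not called. TIP3-1 and TIP3-2 had too few reads for a narrow estimate, with WT 95% intervals of -0.89 to 1.65 and -1.21 to 1.17.

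In the NIP group, 2 of the 8 tested members were called higher in each genotype and none was called lower. These 25% stand beside 30.1%, 29.5% and 26.1% of all genes called in either direction in ahl10-1, rrp6l1-2 and WT. The count is thus not above that share. NIP1-2 (AT4G18910), known in Arabidopsis for carrying an aluminium-malate complex out of root cell walls, rose with little spread between libraries. Its level was 15.7, 16.0 and 15.6 in stress against 9.49, 10.6 and 10.7 in control libraries of ahl10-1. In rrp6l1-2 the NIP1-2 level was 15.0, 14.0 and 14.9 in stress against 10.2, 10.7 and 10.4 in control. For WT the NIP1-2 level was 17.1, 15.2 and 18.4 in stress against 10.9, 10.5 and 10.2 in control. Every stress library of NIP1-2 exceeded every control library. Its log2 fold change was 0.62, 0.49 and 0.68 in ahl10-1, rrp6l1-2 and WT, with adjusted p-values of 9.36e-06, 9.74e-05 and 4.55e-06 from edgeR. NIP5-1 (AT4G10380), the channel through which roots take up boric acid, had levels of 18.1, 19.4 and 13.2 in stress against 10.9, 10.11 and 8.57 in control libraries of ahl10-1. In rrp6l1-2 the NIP5-1 level was 15.1, 17.7 and 19.2 in stress against 8.48, 13.0 and 12.4 in control. For WT the NIP5-1 level was 18.4, 21.1 and 19.5 in stress against 11.8, 11.4 and 15.2 in control. The NIP5-1 groups did not overlap within a genotype. For NIP5-1 the log2 fold change was 0.78, 0.62 and 0.62 in the same order, with adjusted p-values of 0.00276, 0.0122 and 0.0131. The call was lost without control replicate 1 or stress replicate 3 in rrp6l1-2 and without control replicate 1 or 2 in WT, with adjusted p-values of 0.0535 to 0.0618.

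NIP1-1 (AT4G19030), the most abundant NIP and a channel for arsenite and hydrogen peroxide, did not pass the test. Its level was 36.5, 31.2 and 27.1 in stress against 23.1, 27.9 and 15.4 in control libraries of ahl10-1. In rrp6l1-2 the NIP1-1 level was 27.3, 31.4 and 30.6 in stress against 14.6, 22.8 and 20.3 in control. For WT the NIP1-1 level was 33.5, 25.9 and 23.4 in stress against 19.2, 19.9 and 38.7 in control, with control replicate 3 the highest of the 18 libraries. The log2 fold change of NIP1-1 was 0.51, 0.63 and 0.09 in ahl10-1, rrp6l1-2 and WT, and the groups were separate in rrp6l1-2 alone. The call depended on the fit, since NIP1-1 was called higher in ahl10-1 (adjusted p = 0.0299) and rrp6l1-2 (adjusted p = 0.00550) by edgeR on the libraries of that genotype alone with the replicate number as a block, an alternative chosen after seeing the data. In rrp6l1-2 it was also called by DESeq2 (adjusted p = 0.0490) and by edgeR on the rrp6l1-2 libraries alone without a block (adjusted p = 0.0262). NIP6-1 (AT1G80760), which distributes boric acid in shoot nodes, had lowest, median and highest levels of 7.08, 8.82 and 13.6 over the 9 stress libraries and 7.34, 12.1 and 25.0 over the 9 control libraries. Its log2 fold change was -0.88 in ahl10-1 (adjusted p = 0.0538), where control replicate 1 stood at 25.0 against 7.34 and 11.04 in the other control libraries. The groups were separate in WT alone. Without ahl10-1 control replicate 2 or 3 the value of NIP6-1 passed the test (log2 fold change -1.21 and -1.05, adjusted p = 0.00414 and 0.0496). NIP2-1, NIP3-1, NIP4-2 and NIP7-1 had mean levels over the 18 libraries of 1.70 or less and were not called.

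The SIPs, which reside in the endoplasmic reticulum, had narrow ranges. SIP1-1 (AT3G04090) had levels of 49.7, 50.8 and 51.8 in stress against 47.1, 51.2 and 52.4 in control libraries of ahl10-1. In rrp6l1-2 the SIP1-1 level was 45.0, 50.1 and 50.4 in stress against 48.1, 51.9 and 54.5 in control. For WT the SIP1-1 level was 49.1, 48.1 and 49.0 in stress against 48.5, 48.0 and 51.5 in control. Stress and control libraries of SIP1-1 overlapped in each genotype. The 95% interval of its log2 fold change was -0.11 to 0.14 in ahl10-1, -0.21 to 0.04 in rrp6l1-2 and -0.15 to 0.11 in WT. SIP2-1 had log2 fold changes of -0.10, -0.12 and -0.12 and SIP1-2 of -0.37, -0.38 and -0.28 in the same order. Of the 3 SIPs, 0 were called by edgeR or by DESeq2 in any genotype, and 0 had an unadjusted edgeR p under 0.05. The edgeR calls made 30.1%, 29.5% and 26.1% of all genes in ahl10-1, rrp6l1-2 and WT. Leaving out 1 library made SIP1-2 pass in ahl10-1 (without stress replicate 2, adjusted p = 0.0491) and SIP2-1 in rrp6l1-2 (without control replicate 1, adjusted p = 0.0478), both lower.

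**Figure D3:**
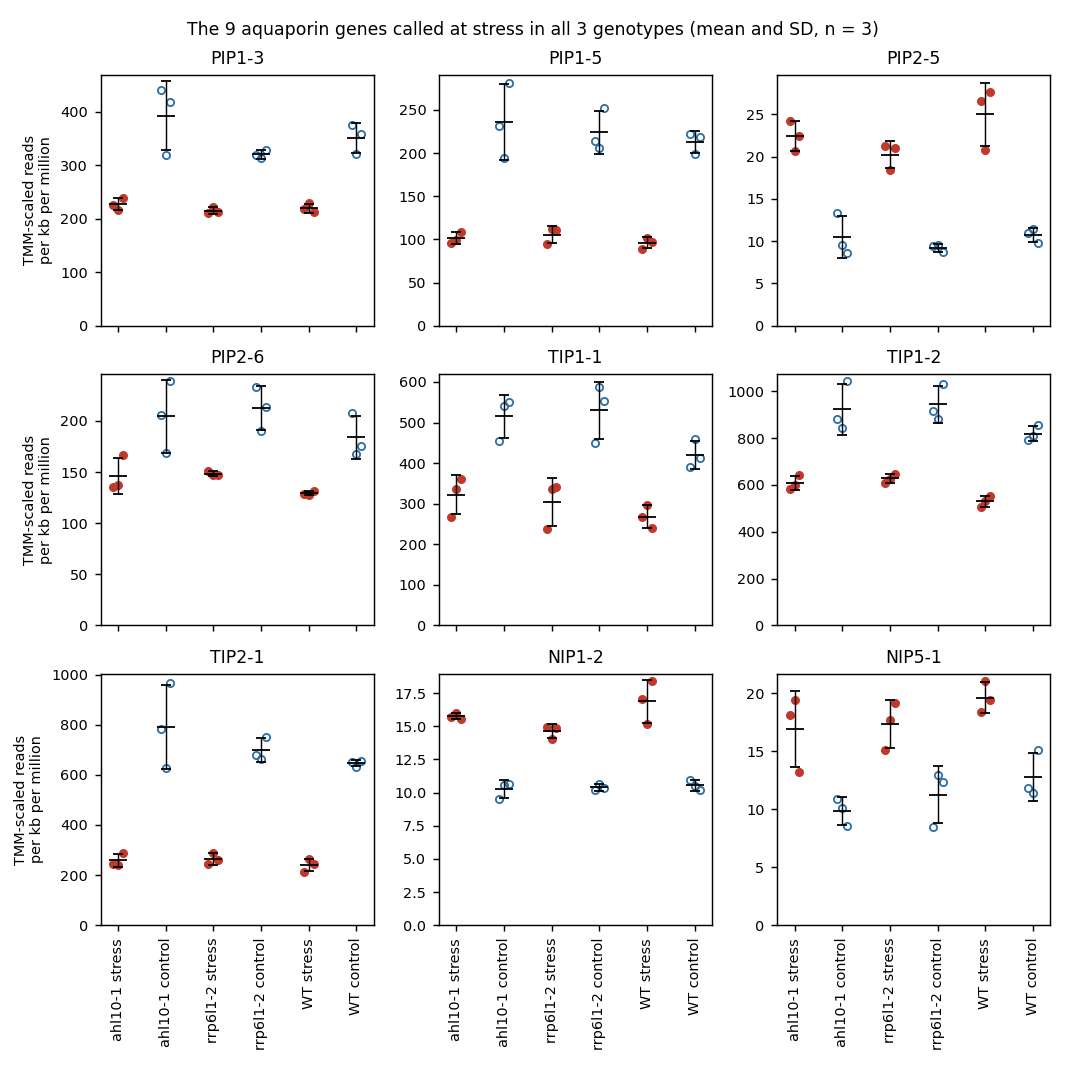
Level of the 9 aquaporin genes called in all 3 genotypes, in TMM-scaled RPKM, with a point for each library, filled for stress and open for control, and the mean with its SD (n = 3). The stress libraries of TIP2-1 lie between 213 and 289 and its control libraries between 627 and 965.

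The stretch before the annotated start of each gene was read for the letters of a pair of short motifs known from stress-responsive plant promoters. These were ACGTG, the core of the abscisic acid response element, and CCGAC, the core of the dehydration response element, searched on both strands in the 250 bases upstream of the gene start in RefSeq's TAIR10.1, where all 35 loci matched. The start is that of the annotation and not one measured here. ACGTG occurred in 4 of the 35 members (TIP1-1, TIP3-1, TIP5-1 and SIP1-1), which is beside 22.9% of 27443 genes scanned. CCGAC occurred in 4 of 35 (PIP1-3, PIP2-5, TIP1-1 and TIP1-2), beside 12% of the same genes. All 4 members with CCGAC were among the 9 called at stress in all 3 genotypes, with PIP2-5 higher and the others lower, so both directions occur among them. The other 5 of those 9 hold no CCGAC in this window, and no test was made of the overlap. It was seen after the calls were known. The share of all genes with CCGAC that were called was not computed, so the overlap has no background beside it. The sequences of these 4 are shown with that of TIP2-1, which had the largest fall and neither motif. Motif letters are in capitals and may stand on either strand.
TIP2-1 (chr3:5505110-5505359, plus strand): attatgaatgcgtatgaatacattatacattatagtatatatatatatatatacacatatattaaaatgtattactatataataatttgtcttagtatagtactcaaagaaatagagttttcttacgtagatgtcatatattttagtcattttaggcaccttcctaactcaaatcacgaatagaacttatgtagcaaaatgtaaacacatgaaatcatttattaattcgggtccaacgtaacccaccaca
TIP1-1 (chr2:15445044-15445293, plus strand): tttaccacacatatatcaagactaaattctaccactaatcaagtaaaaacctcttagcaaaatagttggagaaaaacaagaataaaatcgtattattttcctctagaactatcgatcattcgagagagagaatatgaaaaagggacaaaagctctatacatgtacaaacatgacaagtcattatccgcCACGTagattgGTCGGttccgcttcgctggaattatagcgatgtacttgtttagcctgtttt
TIP1-2 (chr3:9723905-9724154, minus strand): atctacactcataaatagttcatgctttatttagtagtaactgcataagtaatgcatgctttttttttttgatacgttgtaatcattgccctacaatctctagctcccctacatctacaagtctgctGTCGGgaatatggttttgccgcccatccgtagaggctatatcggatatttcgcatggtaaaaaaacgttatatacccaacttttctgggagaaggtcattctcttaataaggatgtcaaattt
PIP1-3 (chr1:227544-227793, minus strand): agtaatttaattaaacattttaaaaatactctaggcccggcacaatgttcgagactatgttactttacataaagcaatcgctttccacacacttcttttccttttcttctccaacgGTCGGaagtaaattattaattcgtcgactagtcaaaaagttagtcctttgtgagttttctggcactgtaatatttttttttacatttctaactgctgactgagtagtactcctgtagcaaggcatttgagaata
PIP2-5 (chr3:20301509-20301758, plus strand): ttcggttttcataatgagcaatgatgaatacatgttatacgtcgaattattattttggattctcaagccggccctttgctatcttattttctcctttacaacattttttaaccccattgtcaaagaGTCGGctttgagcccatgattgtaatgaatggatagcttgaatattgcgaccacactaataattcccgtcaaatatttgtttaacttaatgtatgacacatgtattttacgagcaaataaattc
In TIP1-1 the ACGTG match begins 62 bases and the CCGAC match 51 bases before the start. The CCGAC match begins 123 bases before the start in TIP1-2, 134 in PIP1-3 and 124 in PIP2-5. A match is a description of letters, and none of these data measure binding.

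Summed over its members, the family level was lower at stress in each genotype. The sum averaged 4253 ± 388 in ahl10-1 stress and 5772 ± 726 in ahl10-1 control libraries (SD, n = 3 each), a ratio of 0.737. It averaged 4205 ± 397 in rrp6l1-2 stress and 5634 ± 489.6 in rrp6l1-2 control libraries, a ratio of 0.746. In WT it averaged 3774 ± 93.6 at stress and 5073 ± 154 at control, a ratio of 0.744. By library the sums were 3883, 4220.3 and 4656 in ahl10-1 stress against 5530.4, 5197 and 6587 in ahl10-1 control, 3750.00, 4385 and 4480.04 in rrp6l1-2 stress against 5358, 5345 and 6199 in rrp6l1-2 control, and 3680.4, 3868 and 3773 in WT stress against 5082, 4914 and 5223 in WT control. No stress library reached any control library of its genotype. These sums are descriptions without a test, and in whole seedlings fewer cells of a type and less RNA per cell cannot be told apart.

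The TIP sum had the lowest ratio of the groups. Their summed level at stress was 0.563 times that at control in ahl10-1, 0.575 in rrp6l1-2 and 0.577 in WT. The corresponding ratio of the PIP1 sum was 0.863, 0.886 and 0.866, and that of the PIP2 sum 0.827, 0.825 and 0.816. TIPs made 31.1% of the family level in ahl10-1 stress and 40.7% in ahl10-1 control libraries, 31.6% in rrp6l1-2 stress and 41.1% in rrp6l1-2 control libraries, and 30.5% in WT stress and 39.4% in WT control libraries. TIP2-1 alone made 35.1% of the net difference in ahl10-1, 30.4% in rrp6l1-2 and 31.3% in WT, and TIP1-2 a further 20.8%, 22.1% and 22.2%. NIPs stood at 1.26, 1.33 and 1.14 times their control sum, but made 2.09% of the family in WT stress and 1.36% in WT control libraries. The NIP sums overlapped between treatments in ahl10-1 (67.4 to 79.9 at stress, 47.7 to 70.8 at control) and WT (76.9 to 81.9, 59.3 to 85.9). In rrp6l1-2 they were separate (67.6 to 75.4, 48.2 to 58.7). The SIP sum had ratios of 0.978, 0.929 and 0.959.

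**Figure D4:**
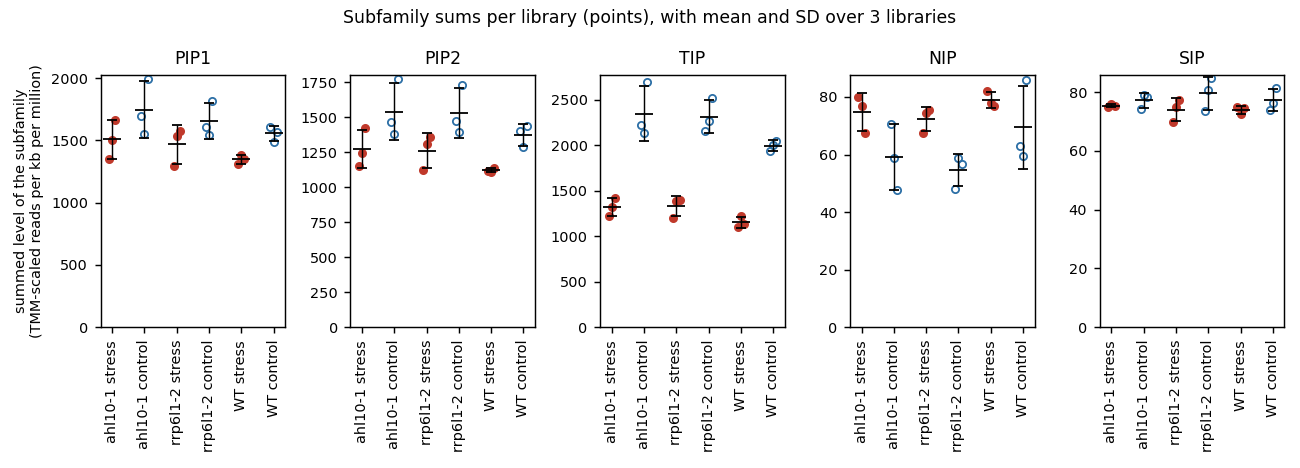
Summed level of the PIP1, PIP2, TIP, NIP and SIP genes in each library, in TMM-scaled RPKM, with filled points for stress, open points for control and the mean with its SD (n = 3). In the TIP panel the 3 WT stress libraries sit at 1099 to 1222 and the 3 WT control libraries at 1935 to 2049.

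Markers of organs in the sample differed between some groups and libraries. The summed level of 10 leaf mesophyll genes was 29475 to 44709 in ahl10-1 stress and 34094 to 55466 in ahl10-1 control libraries, 34136 to 40764 in rrp6l1-2 stress and 42029 to 57783 in rrp6l1-2 control libraries, and 30436 to 33221 in WT stress and 33208 to 42196 in WT control libraries. These sums overlapped between treatments in ahl10-1 and WT and not in rrp6l1-2, the list's median log2 fold change was -0.31 in ahl10-1, -0.47 in rrp6l1-2 and -0.35 in WT, and RBCS2B and RCA, both lower in rrp6l1-2, were the leaf genes called. The highest of the sums, 55466 and 57783, were control replicate 3 of ahl10-1 and of rrp6l1-2, the same libraries that had the highest aquaporin sums, 6587 and 6199. The summed level of 8 root hair genes was 39.2 to 58.2 in ahl10-1 stress and 17.9 to 20.1 in ahl10-1 control libraries, 34.5 to 62.9 in rrp6l1-2 stress and 13.8 to 41.3 in rrp6l1-2 control libraries, and 39.9 to 53.9 in WT stress and 13.4 to 40.1 in WT control libraries. Of the 8 root hair genes, 6 were called higher at stress in ahl10-1, 1 in rrp6l1-2 and 2 in WT, beside 15.7%, 14.9% and 12.6% of all genes, and AT5G43520 was called lower in each. The 9 genes of root endodermis and stele summed to 95.8 to 102 in WT stress and 76.4 to 118 in WT control libraries, and 4 of them were called in ahl10-1, 4 in rrp6l1-2 and 3 in WT, in both directions, beside 30.1%, 29.5% and 26.1% of all genes. EM1, 1 of 8 seed genes, rose in each genotype, and the pollen gene ROPGEF12 rose in ahl10-1 and rrp6l1-2. The highest WT control sums of both root lists, 40.1 and 118, were those of replicate 3. That library was also the highest WT control library for TIP4-1 (16.4), NIP1-1 (38.7) and PIP2-4 (19.4). The part of these shifts in the aquaporin values was not tested.

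Genes known to act on aquaporins were followed as a list of 17. In ahl10-1, 4 rose and 3 fell, in rrp6l1-2, 4 rose and 3 fell, and in WT, 4 rose and 4 fell, beside 30.1%, 29.5% and 26.1% of all genes called in either direction. The list's median log2 fold change was -0.08, -0.03 and -0.05 in that order, beside 0.0059, 0.0216 and -0.0029 for all genes. TSPO, a stress-induced membrane protein known to send PIP2-7 to degradation, rose by the most. Its level was 10.2, 6.61 and 4.62 in stress against 1.17, 0.334 and 0.946 in control libraries of ahl10-1. In rrp6l1-2 the TSPO level was 6.51, 2.98 and 5.43 in stress against 1.39, 1.74 and 0.943 in control. For WT the TSPO level was 6.83, 7.95 and 4.06 in stress against 0.973, 1.06 and 1.19 in control. The groups did not overlap, and the log2 fold change of TSPO was 3.13, 1.87 and 2.55 in ahl10-1, rrp6l1-2 and WT, with edgeR adjusted p-values of 7.74e-05, 0.00354 and 0.000389.

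OST1, the abscisic acid-activated kinase that phosphorylates PIP2-1 in guard cells, rose in each genotype (log2 fold change 0.41, 0.32 and 0.45 in ahl10-1, rrp6l1-2 and WT). UBC32, a ubiquitin-conjugating enzyme of the endoplasmic reticulum, rose by 0.32, 0.21 and 0.23 on the log2 scale, and GRF10, a 14-3-3 protein, by 0.26, 0.22 and 0.20. The loci AT3G24715 and AT3G02880 fell in each genotype, with log2 fold changes of -0.71, -0.59 and -0.86 for the first and -0.22, -0.33 and -0.36 for the second. SYP121 and SYP122, syntaxins of the plasma membrane, were called lower in WT, with log2 fold changes of -0.88 and -1.50. SYP122 levels were 13.5, 12.6 and 14.3 in WT stress against 64.6, 18.3 and 31.7 in WT control libraries, where control replicate 1 was far above the others. RMA2, a ubiquitin ligase, was called lower in ahl10-1 (-0.50) and SIRK1, a receptor kinase, in rrp6l1-2 (-0.19). SYP121, SYP122, RMA2 and SIRK1 all had lower mean levels at stress than at control in each genotype. For SIRK1 these were 8.66 against 9.84 in rrp6l1-2 and 8.54 against 9.68 in WT. Of the 17 genes, 0 were called for an interaction of either mutant with stress, so the genotypes are not shown to differ.

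Boron transporters export boron from cells and so complement the boric acid channels NIP5-1 and NIP6-1. Of 7 genes, 6 were tested, and 3 rose in ahl10-1, 1 in rrp6l1-2 and 1 in WT, beside 15.7%, 14.9% and 12.6% of all genes, so the counts in rrp6l1-2 and WT are near that share. BOR5 rose in each genotype, with levels of 3.34, 4.09 and 4.10 in WT stress against 1.51, 2.08 and 1.70 in WT control libraries. For BOR5 the log2 fold change was 1.17, 0.77 and 1.12 in ahl10-1, rrp6l1-2 and WT, with edgeR adjusted p-values of 0.00529, 0.0470 and 0.00825. BOR2 and BOR4 were called higher in ahl10-1 with log2 fold changes of 0.79 and 0.68. Their mean levels were also higher at stress in rrp6l1-2 and WT, without a call, as with BOR2 in WT (23.9 against 17.2). Of the 6 tested genes, 0 were called for an interaction of either mutant with stress, so the genotypes are not shown to differ. AT5G25430 had 0 reads in all 18 libraries.

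The comparison of each mutant with WT asks whether aquaporin transcripts differ in ahl10-1 or rrp6l1-2, where the AHL10 or RRP6L1 transcript was lower but not absent. No aquaporin passed the test against WT in either mutant at either treatment. At stress, edgeR called 0 of 32 members in ahl10-1 and 0 of 32 in rrp6l1-2, beside 0.0351% and 0.0834% of all genes tested. At control it called 0 of 32 in ahl10-1 and 0 of 32 in rrp6l1-2, beside 0.0263% and 0.211% of all genes. DESeq2 also called 0 members in each of the 4 comparisons. At an unadjusted edgeR p under 0.05 there were 1 and 3 members at stress and 2 and 5 at control, in ahl10-1 and rrp6l1-2, beside 4.35% and 3.77% of all genes at stress and 5.94% and 17.6% at control. These were TIP1-2 in ahl10-1 and PIP2-5, TIP1-2 and NIP1-2 in rrp6l1-2 at stress, and TIP2-1 and NIP5-1 in ahl10-1 and TIP1-1, TIP1-2, TIP2-2, NIP2-1 and NIP6-1 in rrp6l1-2 at control. The smallest adjusted p of a member was 0.996 in ahl10-1 and 0.9998 in rrp6l1-2 at stress, and 0.793 in ahl10-1 and 0.213 in rrp6l1-2 at control. Both mutants are compared with the same WT libraries, so their values share those controls.

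How large a difference could have been missed is given by the 95% intervals. The interval lay within 1 on the log2 scale, in both directions, for 26 of 32 members in ahl10-1 and 26 in rrp6l1-2 at stress, and for 26 and 25 at control. It lay within 0.58, in both directions, for 18 and 18 members at stress and 18 and 19 at control. TIP2-1, for example, had an interval of -0.17 to 0.38 for ahl10-1 and -0.14 to 0.42 for rrp6l1-2 at stress, and of 0.02 to 0.57 and -0.16 to 0.39 at control. For PIP1-2 the intervals were -0.06 to 0.47 and -0.10 to 0.43 at stress and -0.08 to 0.45 and -0.11 to 0.42 at control. The widest intervals belonged to members with few reads, such as NIP2-1, whose interval in rrp6l1-2 at control was 0.06 to 3.17.

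NIP6-1, described here after its values were seen, had the lowest fold change of the family in 3 of the 4 mutant comparisons. Its level was 7.08, 7.18 and 9.36 in ahl10-1 stress and 8.27, 8.82 and 7.74 in rrp6l1-2 stress against 10.6, 13.6 and 13.5 in WT stress libraries. At control it was 25.0, 7.34 and 11.04 in ahl10-1 and 12.1, 7.69 and 9.55 in rrp6l1-2 against 18.1, 15.1 and 18.6 in WT. At stress both mutants lay below WT without overlap, as did rrp6l1-2 at control (11.9%, 14.4% and 22% of all genes do not overlap in these comparisons), while ahl10-1 at control overlapped WT (7.73% of all genes do not), with its replicate 1 the highest of all 18 libraries. The log2 fold change of NIP6-1 was -0.68 (SE 0.32) in ahl10-1 and -0.60 (SE 0.32) in rrp6l1-2 at stress, and -0.25 (SE 0.32) and -0.82 (SE 0.32) at control. None passed edgeR's test, with adjusted p-values of 0.996, 0.9998, 0.908 and 0.215 in that order. The authors' deposited table lists NIP6-1 with log2 fold changes of -0.41, -0.42 and -0.63 and adjusted p-values of 0.00455, 0.000283 and 0.000983 for ahl10-1 at stress, rrp6l1-2 at stress and rrp6l1-2 at control. Its SEs there were 0.092, 0.085 and 0.139. Over all genes the authors' log2 fold changes correlated with those of edgeR at 0.565, 0.545 and 0.734 in that order, so these are unlike estimates. The WT libraries are shared by these comparisons.

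TIP1-2, also described after its values were seen, was the 1 member with an unadjusted p under 0.05 in 3 of these comparisons. The TIP1-2 level was 608, 627 and 648 in rrp6l1-2 stress against 506, 531 and 552 in WT stress libraries, which do not overlap. Its log2 fold change there was 0.24 (SE 0.09), with an unadjusted p of 0.0174 and an adjusted p of 0.9998 from edgeR, and it is 0.21 with an adjusted p of 0.0216 in the authors' deposited table. TIP1-2 had log2 fold changes of 0.20 in ahl10-1 at stress, 0.17 in ahl10-1 at control and 0.21 in rrp6l1-2 at control. The family sums were 4253 ± 388 in ahl10-1 stress, 4205 ± 397 in rrp6l1-2 stress and 3774 ± 93.6 in WT stress libraries (SD, n = 3 each). At control they were 5772 ± 726 in ahl10-1, 5634 ± 489.6 in rrp6l1-2 and 5073 ± 154 in WT. The leaf mesophyll sums given above reached higher in both mutants than in WT at both treatments, and their part in these values was not tested.

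**Figure D5:**
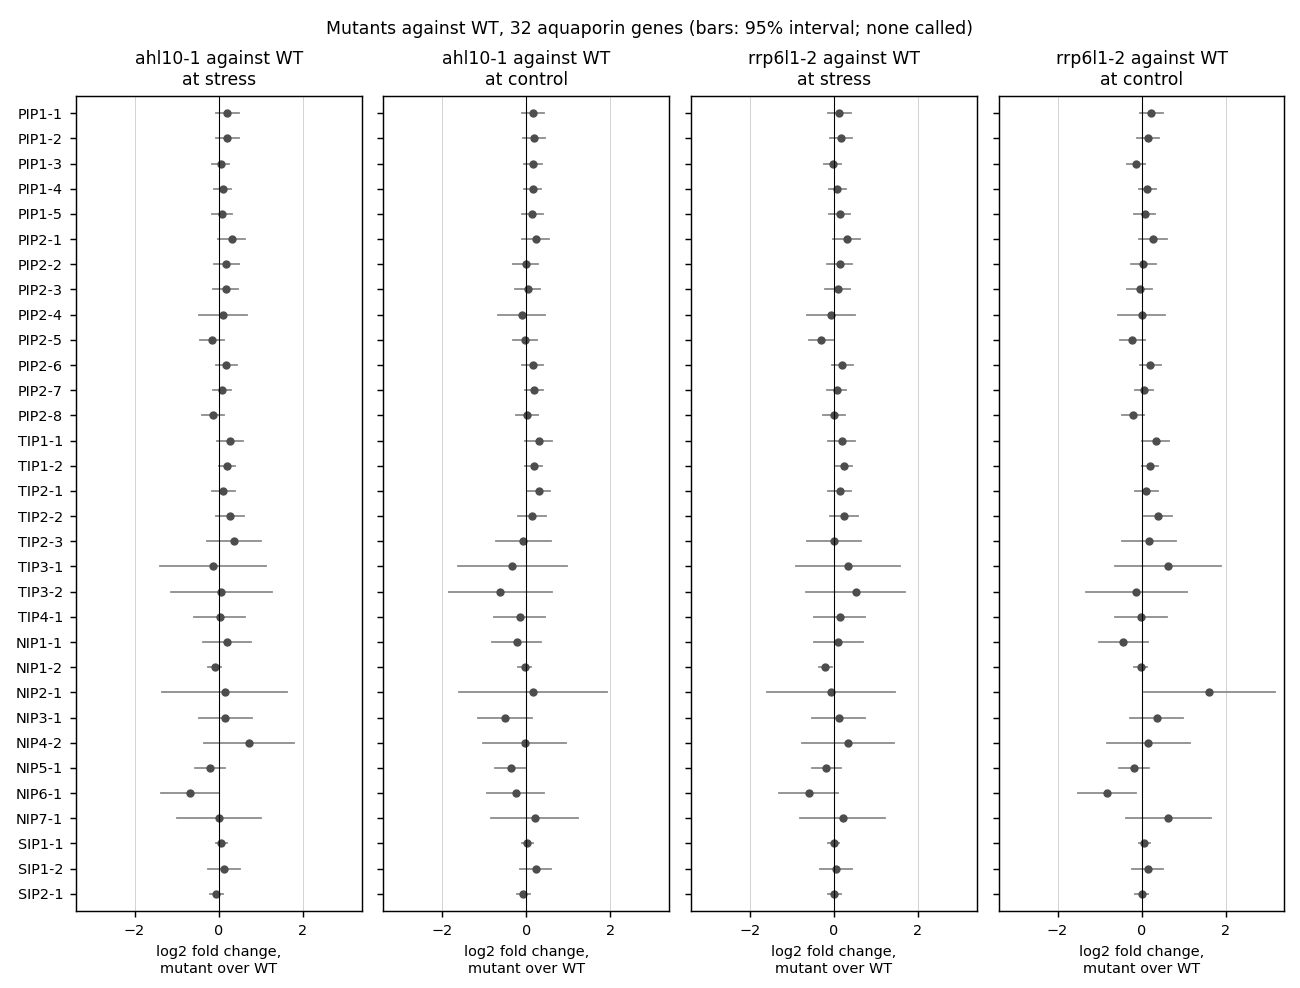
Log2 fold change of each mutant over WT for the 32 tested aquaporin genes at stress and at control, with bars for the 95% interval of the edgeR fit. No member was called, and most points lie near 0, with NIP6-1 at -0.68 in ahl10-1 at stress and at -0.82 in rrp6l1-2 at control.

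Whether a mutant changes the response to stress was tested as an interaction. EdgeR called 0 of 32 members for ahl10-1 and 0 of 32 for rrp6l1-2, beside 0% of all genes tested in both. DESeq2 called 0 members as well, and 0 members had an unadjusted edgeR p under 0.05 in either, beside 1.39% and 1.68% of all genes. The interval of the interaction lay within 1 on the log2 scale, in both directions, for 21 members with ahl10-1 and 22 with rrp6l1-2. For TIP2-1 it was -0.58 to 0.20 with ahl10-1 and -0.36 to 0.42 with rrp6l1-2, and for PIP2-5 -0.54 to 0.29 and -0.50 to 0.33. The differences in which members were called at stress between genotypes, such as TIP2-3 in ahl10-1 alone, are not shown to be differences between the genotypes.

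For WT at stress, the authors' deposited table calls 4 members higher and 10 lower at an adjusted p under 0.05. All 10 members called here have the same call in it. The 4 that it adds are lower at stress, namely PIP2-1 (log2 fold change -0.41), PIP2-4 (-0.56), PIP2-7 (-0.17) and NIP6-1 (-0.44), with adjusted p-values of 1.08e-06, 0.0381, 0.0430 and 0.00453 in the authors' deposited table. For ahl10-1 against WT at control that table calls 0 members, as edgeR does here.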

How the data were processed

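Whole-seedling poly(A) RNA was sequenced in 18 libraries made with a stranded kit, and grouped by genotype and treatment as the labels give them. The authors deposited for each library an expected count of reads per gene (some values are not whole), the gene length in kilobases, an RPKM and the fraction of its reads that are multi-mapped, per the file headers. The authors also deposited comparison tables with a log2 fold change, a test score and a p-value with its adjusted value, per the file headers. CASAVA, bcl2fastq 1.8.4, Bowtie2, DESeq2 and the TAIR10 build are named in the submitters' processing notes, without roles, and how reads were assigned to genes, by strand or not, was not given in the sources used here.

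From the deposited counts, rounded to whole numbers, genes were kept by edgeR's filter on low counts by group, scaled with TMM factors (0.901 to 1.07) and fitted in 1 model of 6 group means without a block, with edgeR 4.0.16 in R 4.3.3 (quasi-likelihood, robust, 12 residual degrees of freedom, biological coefficient of variation 14.4%). Stress was compared with control in 3 genotypes, ahl10-1 and rrp6l1-2 with WT under either treatment, and both interactions were fitted, which makes 9 comparisons. The p-values are two-sided and Benjamini-Hochberg adjusted within a comparison. The SE is the log2 fold change divided by the square root of its F value. DESeq2 1.42.0 and limma 3.58.1 (on log2 of the RPKM plus 0.5 or 0.1) were alternatives. The scripts were tested on simulated data, where most 2-fold changes but only a minority of 1.5-fold changes were recovered.

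Same-numbered libraries deviated together, with all 3 correlations of their deviations above 0.1, between stress and control in ahl10-1 (0.239, 0.205 and 0.327) and in rrp6l1-2 (0.444, 0.123 and 0.160) and between rrp6l1-2 and WT at control (0.435, 0.312 and 0.198). The labels describe the replicates as independent experiments.

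The members and lists were chosen with earlier results of these data known. Values in every library are given for members called in a comparison with an absolute log2 fold change of at least 0.58 and for the member with the highest mean level of each subfamily. Sequences were read from RefSeq's TAIR10.1. For 1 gene of the root endodermis and stele list RefSeq gives another symbol, and it was left out.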

Additional observations from a re-analysis of the deposited data

How the results depend on the processing

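Of the 33 calls of aquaporins at stress, 25 were kept in every other setting run for them, 9 in WT and 10 in the mutants, and in every fit that left out 1 library. In another setting 3 calls were lost, namely PIP2-6 in ahl10-1 and TIP4-1 in rrp6l1-2 when the compared groups alone were fitted (adjusted p-values of 0.0523 and 0.0628) and PIP2-7 in ahl10-1. Leaving out 1 library gave 9 to 12 called members in ahl10-1, 9 to 13 in rrp6l1-2 and 8 to 10 in WT, and 0 in each mutant comparison and interaction. Counts of called members stayed within 1.5 times the reported count under every setting run, and no called member changed direction. With the replicate number as a block PIP2-1 (log2 fold change -0.42, adjusted p = 0.00953) and TIP4-1 (0.86, adjusted p = 0.0257) were also called in WT, where same-numbered libraries did not deviate together, and no other call changed beyond those given above. A block within the compared groups alone, chosen after seeing the data, added PIP2-1, PIP2-4 and NIP1-1 in ahl10-1 (adjusted p-values of 0.0185, 0.0324 and 0.0299) and PIP1-1, PIP2-2 and NIP1-1 in rrp6l1-2 (0.0369, 0.0385 and 0.0055). DESeq2 added PIP2-1 and TIP4-1 in WT, NIP6-1 in ahl10-1, and PIP1-1, PIP2-1, PIP2-4 and NIP1-1 in rrp6l1-2. In WT, edgeR without TMM factors added PIP2-1, and both limma fits added PIP2-1 and TIP4-1. A fit of the WT libraries alone added PIP2-1 and NIP6-1 (adjusted p = 0.0256), both lower. For rrp6l1-2 against WT at control, all genes called numbered 48 in edgeR, 822 in DESeq2 and 148 with the block. Members with few reads, such as NIP2-1 and TIP3-1, had intervals too wide to limit a change. The limit of 3 reads given above for a count of 0 covers counting error only.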
